A study of Danio rerio with 2 samples.

Results

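The hox genes of the zebrafish (Danio rerio) were examined on 2 Agilent 2-colour arrays that compared embryos injected with an estrogen receptor morpholino with control embryos. Members were taken by name: every array row whose gene name began with hox, a cluster letter from a to d, a paralog number and the duplicate letter a or b. This gave 47 genes on 100 spots, among 43839 spots that are not controls and 36050 genes and unnamed transcripts in all. Each of the 47 names is a current symbol in the RefSeq gene table used here (assembly GRCz12tu), which lists 49 hox symbols of this form; hoxc12a and hoxd9a had no row under the naming rule. Between 1 and 4 spots carried each gene, and 14 genes had 1 spot.

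Hox genes encode homeodomain transcription factors that assign position along the body axis from head to tail. They lie in clusters, in which genes of low paralog number act towards the head and are switched on first, while genes of high number act in the trunk and tail and are switched on later. Paralog groups 1 to 4 are known for patterning the hindbrain and pharyngeal arches, the middle groups for the trunk, and groups 9 to 13 for the posterior trunk, tail and fins. After a genome duplication in the fish lineage, zebrafish keep 7 hox clusters, written here aa, ab, ba, bb, ca, cb and da, so that hoxb5a and hoxb5b are duplicates of one ancestral gene. Retinoic acid and Caudal (Cdx) factors activate many hox genes, Polycomb proteins keep them silent, and hox proteins bind DNA together with Pbx and Meis cofactors.

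Ovulated eggs received 10.3 ng per embryo of either MO2-ers2a, a morpholino made to block translation of the ers2a transcript (estrogen receptor beta2, the gene now named esr2a), or a control morpholino. Embryos were fixed at 8 hours post fertilization (hpf), during gastrulation, or at 48 hpf, when the larval body plan is formed. Total RNA of MO2-ers2a embryos was labelled with Cy5 and that of MO-control embryos with Cy3, with 1 array per time, no dye swap and no replicate. The sources used here give neither the number of embryos in each RNA sample nor their strain. A value below therefore describes 1 pair of RNA samples, no test between conditions was possible, and dye and treatment cannot be told apart.

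A spot counted as measured when its background-subtracted signal passed the limit set by 153 negative control spots in both channels, which 44.4% of spots did at 8 hpf and 47.9% at 48 hpf. Ratios are log2 of MO2-ers2a over MO-control after loess normalization, so a value above 0 is a higher level in MO2-ers2a embryos relative to that array's remaining genes. Each gene is given by the median of those of its spots that were measured. Spots that carry one gene differed with a pooled SD of 0.32 (8 hpf) and 0.24 (48 hpf) over all genes. Over hox genes alone it was 0.235 (12 genes with 2 or more measured spots) and 0.21 (25 genes). This SD is technical spread within an array and says nothing of the spread between embryos. The 2 spots of the targeted esr2a transcript were not measured at either time, with signals of 16.25 (Cy5) and 36.25 (Cy3) at 8 hpf, so they give no check of the knockdown. A translation block can in any case leave the transcript in place.

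More hox genes were measured at 48 hpf than at 8 hpf. Of all 36050 genes and unnamed transcripts, 15387 were measured at 8 hpf and 16662 at 48 hpf. At 8 hpf, 28 of the 47 genes were measured in both channels: 9 of 14 in paralog groups 1 to 4, 10 of 12 in groups 5 to 8 and 9 of 21 in groups 9 to 13. At 48 hpf, 41 were measured: 13 of 14, 11 of 12 and 17 of 21. Genes not measured thus went from 5, 2 and 12 to 1, 1 and 4, and groups 5 to 8 had the fewest left to gain. No member was measured at 8 hpf and lost at 48 hpf. The hoxba and hoxca clusters were the most fully measured at 8 hpf, with 9 of 11 and 9 of 10 genes, against 3 of 7 in hoxaa, 1 of 5 in hoxab, 3 of 4 in hoxbb, 1 of 4 in hoxcb and 2 of 6 in hoxda. None of the 5 genes of paralog group 11 and none of the 2 of group 12 was measured in both channels at 8 hpf.

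In the control embryos themselves, 30 members were above the Cy3 limit at both times and 11 at 48 hpf only. The share of all genes above it at 48 hpf only is not given here. The 11 were hoxa1a, hoxa2b, hoxb2a and hoxd4a of the anterior groups, hoxa5a of the middle groups, and hoxa9b, hoxa10b, hoxa11b, hoxc11b, hoxc12b and hoxd13a of the posterior groups. For example, hoxa2b, which specifies the second pharyngeal arch, had a control signal of 33 at 8 hpf, not above the limit, and of 438 at 48 hpf over its measured spots. The limit in Cy3 was 59.9 at 8 hpf and 70.1 at 48 hpf. In bulk RNA of this kind, fewer cells that use a gene and less RNA per cell cannot be told apart.

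Members without a ratio were accounted for as follows. At 8 hpf, 13 were in neither channel, 4 in Cy5 only (hoxa10b, hoxb2a, hoxb4a and hoxd4a) and 2 in Cy3 only (hoxc11a and hoxd11a). A gene seen in 1 channel has only a rough ratio, in which the dim channel is set to its own signal or to the lowest measured one, whichever is higher. In this way hoxd4a was 1.19-fold and hoxb2a 1.04-fold higher, and hoxd11a 1.33-fold and hoxc11a 1.29-fold lower. hoxa10b and hoxb4a gave no fold. For hoxb2a, hoxd11a and hoxc11a the value is the ratio of the spot itself, with 1 channel below the limit, and so not a minimum fold. Such ratios rest on dim signals and are open to dye bias. At 48 hpf hoxa11a, hoxb6b and hoxd12a were in neither channel, and hoxa13a, hoxb4a and hoxc13b were in Cy5 only. Of these, hoxc13b stood at 0.14 on the log2 scale, again the ratio of the spot itself.

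At 8 hpf, most measured hox genes stood above the other genes of the array in MO2-ers2a embryos, by less than 2-fold. The median log2 ratio over 28 members was 0.40 (1.32-fold), with 21 of them (75%) above 0, where 47.9% of all 15387 measured genes lay above 0 and their median was -0.02. Centring on the spike-in control spots without loess put the hox median at -0.17 with 9 members above 0, where 11.8% of all genes were. The median of all genes moved to -0.56, so the difference between hox and all genes, 0.42 in the reported values, was still 0.39. The 10 spike-in probes themselves had medians from -2.43 to 2.90 at 8 hpf after loess. The ratios at which they were added were not used here, so this spread cannot be read as noise. The authors' deposited log ratios gave a hox median of 0.67, with 24 of 28 above 0, where 48.1% of all genes were. No member was 2-fold higher and none 2-fold lower, where 2.33% and 2.26% of all measured genes were, together 4.58%. At 1.5-fold, 8 were higher and 1 lower, where 7.43% and 8.07% of all genes were. The count of 8 became 0 with spike-in centring without loess and 1 with spike-in centring after loess, where 2.41% and 3.34% of all genes were. It became 12 with plain background subtraction and 16 in the authors' deposited table, where 9.60% and 12.3% of all genes were.

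**Figure D1:**
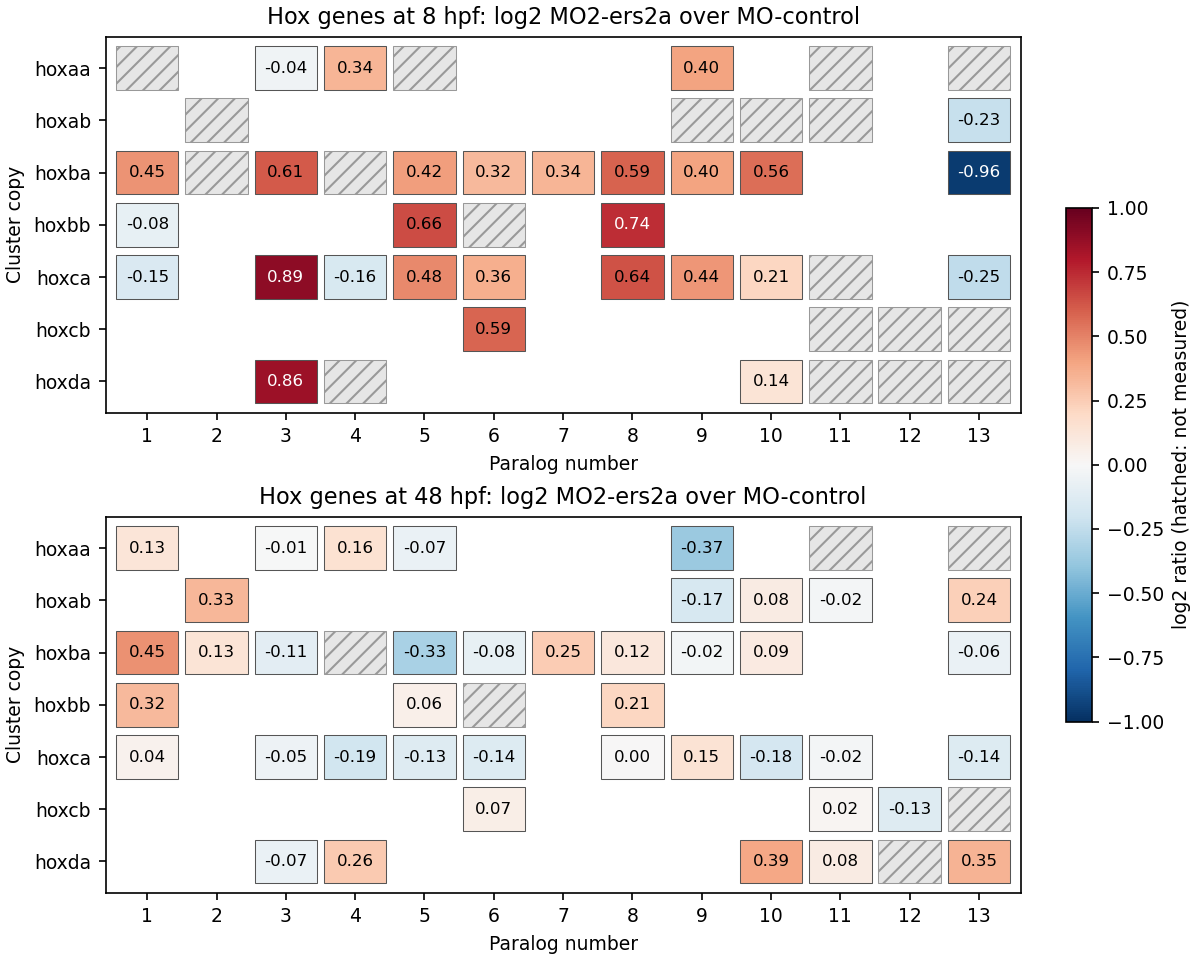
Map of the 47 hox genes at 8 hpf (upper panel) and 48 hpf (lower panel), with the cluster copy on the vertical axis and the paralog number on the horizontal axis. Colour and printed value give the log2 ratio of MO2-ers2a over MO-control relative to the array's remaining genes, hatched cells are members that were not measured, and empty places hold no member. At 8 hpf every measured gene of paralog groups 5 to 10 lies above 0 and the 3 of group 13 lie below, but median centring without loess puts 2 of the 3 genes of group 10 below 0, spike-in centring without loess puts all 3 there and the hox median at -0.17, and the authors' deposited table has hoxa13b of group 13 above 0.

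The middle paralog groups were the most even at 8 hpf. All 10 measured genes of groups 5 to 8 lay above 0, from 0.32 to 0.74, with a median of 0.53 (1.45-fold). Spike-in centring left all 10 above 0 after loess, where 19.6% of all genes were. Without loess it left 5 of them above 0, with a median of 0.00, where 11.8% of all genes were above 0. Signals of hoxb8b were 503.5 in MO2-ers2a and 153.5 in control embryos, a log2 ratio of 0.74. Its duplicate hoxb8a, with signals of 2818.5 and 914, stood at 0.59, and hoxc8a, with 764.5 and 239, at 0.64 (3 spots, 0.53 to 0.75). Thus all 3 measured genes of paralog group 8 were between 0.59 and 0.74, with hoxb8a and hoxb8b on 1 spot each.

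In paralog group 5, hoxb5b, a retinoic acid responsive gene, had signals of 704 and 224 and a log2 ratio of 0.66, although its 3 spots ran from 0.18 to 0.71. The ratio of hoxb5a was 0.42 (2 spots, 0.35 and 0.48) and that of hoxc5a 0.48 on 1 spot. In group 6, hoxc6b stood at 0.59 (2 spots, 0.56 and 0.61), hoxc6a at 0.36 (4 spots, 0.30 to 0.69) and hoxb6a at 0.32 on 1 spot. The single member of group 7, hoxb7a, stood at 0.34 on its 1 measured spot, with signals of 3016 and 1163.5; its other 2 spots were dim, and the median without a filter on dim spots was -0.11. hoxa5a and hoxb6b were not measured.

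Among the anterior genes the values were split, and paralog group 3 held the 2 highest of all members. The 9 measured genes of groups 1 to 4 had a median of 0.34 (-0.35 under spike-in centring without loess), with 5 above 0 and a range of -0.16 to 0.89. hoxc3a had signals of 1183 in MO2-ers2a and 309 in control embryos and a log2 ratio of 0.89 (1.85-fold); 2 of its 3 measured spots gave 0.89 and 0.91 and the dimmest 0.08. hoxd3a, on 1 spot with signals of 206 and 61.5, stood at 0.86 (1.81-fold), and the control signal lay close to the limit of 59.9. hoxb3a, with signals of 1180.5 and 384.5, stood at 0.61 (1.53-fold), whereas hoxa3a, at 101.5 and 81, stood at -0.04.

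In the first paralog group, which is active earliest and patterns the hindbrain, 1 of 3 measured genes lay above 0, and 2 of 3 did with median centring without loess and in the authors' deposited table. hoxb1b, bright on both of its spots with median signals of 23171 and 10113, had a log2 ratio of -0.08 (spots at -0.23 and 0.07), and hoxc1a stood at -0.15 (spots at -0.25 and -0.06), where the authors' deposited table gave 1.17. By contrast hoxb1a, with signals of 190.5 and 81.5, was at 0.45 (spots at 0.34 and 0.56). The difference of 0.52 between these duplicates, 1 dim and 1 bright, changed with the processing. With median centring without loess hoxb1a stood at 0.21 and hoxb1b at 0.18, while the authors' deposited table gave 0.98 and -0.05. The cause was not tested. In group 4, hoxa4a stood at 0.34 on 1 of 3 spots and hoxc4a at -0.16 (2 spots, -0.27 and -0.05). The spots of hoxa4a that were not measured lay at 0.14 and 0.81. The latter had signals of 186 and 59, beside a Cy3 limit of 59.9. With genes of 2 or more measured spots alone, the median of groups 1 to 4 was -0.08 over 5 genes.

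Among posterior genes, those of groups 9 and 10 lay above 0 at 8 hpf and those of group 13 below, but median centring without loess put hoxc10a at -0.09 and hoxd10a at -0.03. The 3 measured genes of group 9 were at 0.40 for hoxa9a (3 spots, 0.29 to 0.47), 0.40 for hoxb9a and 0.44 for hoxc9a (3 spots, 0.43 to 0.94). In group 10, hoxb10a stood at 0.56, hoxc10a at 0.21 and hoxd10a at 0.14, each on 1 measured spot. The 3 measured genes of group 13, whose members pattern the tail and fins, each rest on 1 dim spot below 0, in a brightness bin where all spots had a median of -0.20. hoxb13a, with signals of 39 in MO2-ers2a and 108 in control embryos on 1 of its 2 spots, was lowest of all members at -0.96 (1.94-fold lower), and the authors' deposited table gave -3.03 for it. Its other spot, with 22 and 29.5, was in neither channel and lay at 0.30. hoxc13a stood at -0.25 and hoxa13b at -0.23, near that bin's median, while the spots of these genes that were not measured lay above 0, at 0.36 for hoxc13a and at 0.18 and 0.39 for hoxa13b. The authors' deposited table gave 1.05 for hoxa13b, the opposite direction. The median of groups 9 to 13 was 0.21 over 9 genes, with 6 above 0. But it was -0.03 with median centring without loess and -0.09 with spike-in centring after loess, each with 4 above 0, where 47.9% and 19.6% of all genes were. Spike-in centring without loess gave -0.56 with 1 above 0, where 11.8% of all genes were.

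**Figure D2:**
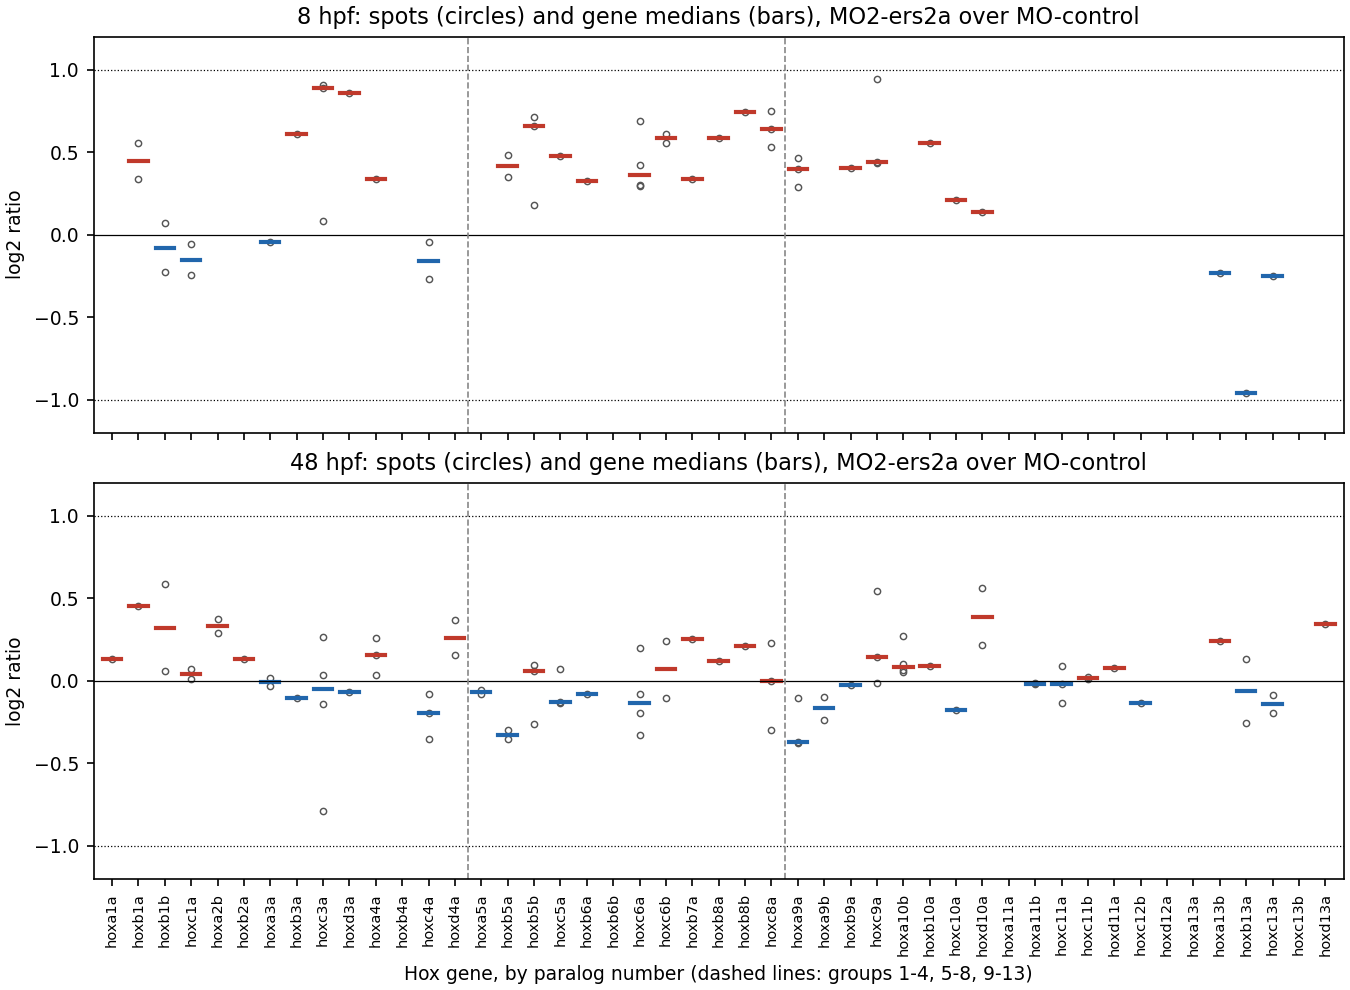
Log2 ratios of MO2-ers2a over MO-control for each measured hox spot (circles) and the median of each gene (bars, red above 0 and blue below), ordered by paralog number, at 8 hpf (upper panel) and 48 hpf (lower panel). Dotted lines mark 2-fold and dashed lines part groups 1 to 4, 5 to 8 and 9 to 13. No gene median reaches a dotted line at either time; the 10 bars of groups 5 to 8 lie above 0 at 8 hpf, relative to that array's remaining genes, and their median is 0.00 under spike-in centring without loess.

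Spots of the same gene mostly shared a side. Of 47 measured hox spots at 8 hpf, 38 lay above 0, and the share of all measured spots is not given here. Of 12 genes with 2 or more measured spots, 11 had all of them on the same side of 0, in 9 cases above. The exception was hoxb1b. The share of all such genes is not given here. Repeated spots of 1 probe cannot be told from different probes of a gene, so the spots may not be independent. The other 16 measured genes rest on 1 spot. In the RefSeq table the annotated spans of 18 hox genes overlap another hox gene, and that of hoxc3a overlaps hoxc4a, hoxc5a, hoxc6a, hoxc8a and hoxc9a. Probe sequences were not used here, so a spot of these genes may read more than the gene it is named for.

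By cluster letter, the medians at 8 hpf were 0.15 for hoxa (4 measured genes), 0.43 for hoxb (12), 0.40 for hoxc (10) and 0.50 for hoxd (2). Centring on the spike-in spots without loess put them at -0.71, -0.10, -0.19 and -0.24; median centring without loess put hoxa at -0.18 and spike-in centring after loess put it at -0.16. In the hoxba copy, 8 of 9 measured genes lay above 0, all but hoxb13a. In hoxca, 6 of 9 did, the exceptions being hoxc1a, hoxc4a and hoxc13a. The 3 measured genes of hoxbb were at 0.66, 0.74 and, for hoxb1b, -0.08. With 2 to 12 genes each, of unequal paralog numbers, the clusters are described and not ranked.

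Of 10 pairs of duplicates on the array, 4 had both genes measured at 8 hpf. In 3 of them the b copy had the higher ratio: hoxb5b over hoxb5a by 0.24, hoxc6b over hoxc6a by 0.22 and hoxb8b over hoxb8a by 0.15. These differences are below the pooled spot SD over all genes (0.32), and that of hoxb5 is slightly above the SD over hox genes (0.235); none was tested. The pair hoxb1a and hoxb1b differed the other way, as given above.

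Brightness moved with the ratio at 8 hpf. Across the 28 genes, Spearman's rho between brightness and log2 ratio was 0.52 (a description across genes that share 1 array), and the 6 hox spots in the dimmest brightness bin that held any had a median of -0.24, where all spots of that bin had -0.20. In 10 of 12 brightness bins that held a hox spot the hox median lay above that of all spots, whose bin medians ran from -0.20 to 0.09. Among the 12 members whose signals were at least 3 times the limit in both channels, the median was 0.59, with 11 above 0 and 7 at 1.5-fold, where 7.68% of all such genes were. The part of brightness in the result was not tested.

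**Figure D3:**
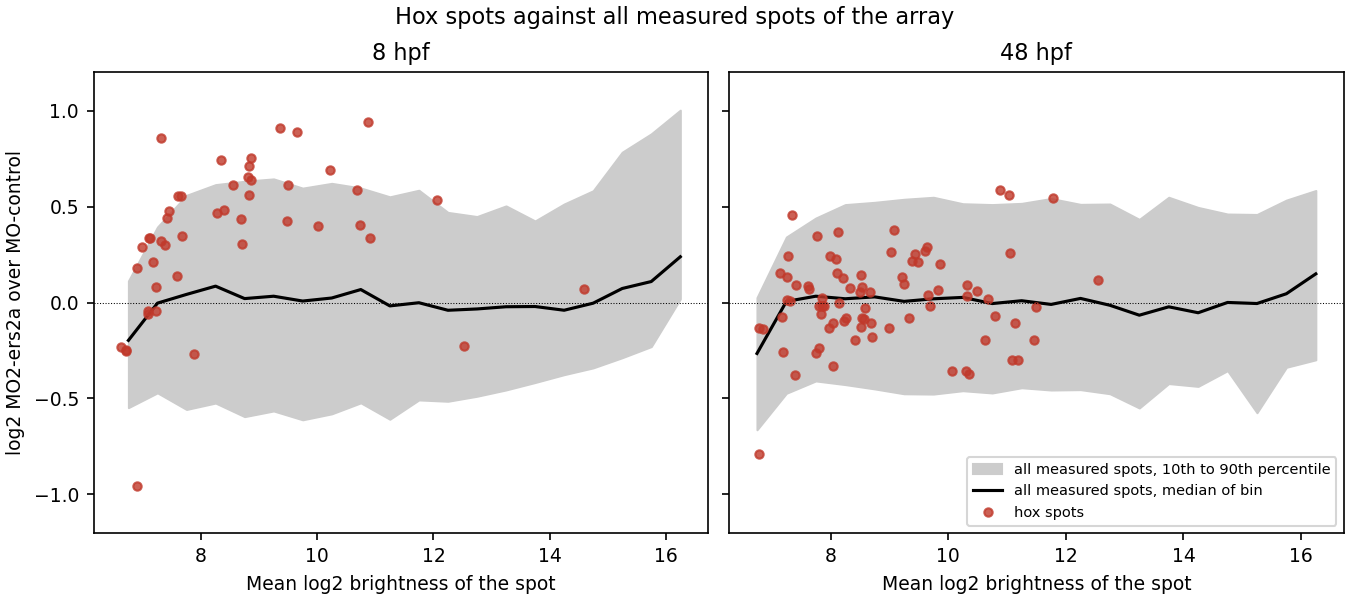
Log2 ratio of MO2-ers2a over MO-control against the mean log2 brightness of the spot, for hox spots (red) at 8 hpf (left) and 48 hpf (right). The black line is the median and the grey band the 10th to 90th percentile of all measured spots in bins of brightness. At 8 hpf 38 of 47 hox spots lie above 0, relative to that array's remaining genes, against 43 of 80 at 48 hpf. Up to 4 spots belong to 1 gene, and the shares of all measured spots are not given here. Spike-in centring without loess would lower the hox median to -0.17 and -0.19.

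At 48 hpf the hox genes as a group stood where the other genes did. Their median was 0.02 over 41 members, against -0.02 for all 16662 measured genes, and 22 (53.7%) lay above 0, where 47.9% of all genes did. Spike-in centring put 11 above 0 without loess and 27 after loess, where 31.8% and 54.3% of all genes were. None reached 1.5-fold in either direction, where 5.65% of all genes were 1.5-fold higher and 6.87% lower, nor 2-fold, where 1.27% and 1.25% were, together 2.52%. The authors' deposited table had 3 members 1.5-fold higher, hoxc12b at 0.90 (here -0.13), hoxa1a at 0.84 and hoxb1a at 0.84, where 9.87% of all genes were. With plain background subtraction 1 was, and 1 when the brightest spot stood for each gene, where 7.53% and 5.97% of all genes were. The range ran from -0.37 to 0.45, and 32 of the 41 lay within 0.25 of 0.

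The 6 highest at 48 hpf included both hoxb1 duplicates. hoxb1a, with signals of 156 and 86 on 1 spot, stood at 0.45, and hoxb1b, with 1672 and 703.5, at 0.32 (spots at 0.06 and 0.59). hoxd10a had signals of 2040 and 868.25 and a ratio of 0.39 (spots at 0.21 and 0.56), hoxd13a, a gene of the fins, was at 0.35 on 1 spot, hoxa2b at 0.33 (spots at 0.29 and 0.38) and hoxd4a at 0.26. All 4 genes of paralog group 1 and both of group 2 lay above 0 at this time, with medians of 0.23 and 0.23, while all 4 of group 3 lay below 0, between -0.11 and -0.01; median centring without loess left 2 of group 1 above 0 and put 3 of group 3 above 0, and spike-in centring left 2 of group 1 above 0 without loess and put 2 of group 3 above 0 after it.

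The lowest at 48 hpf were hoxa9a, with signals of 429 and 310.5 and a ratio of -0.37 (3 spots, -0.38 to -0.10), and hoxb5a, with 1821 and 1361, at -0.33 (spots at -0.35 and -0.30). hoxc4a followed at -0.19 (3 spots, -0.36 to -0.08), then hoxc10a at -0.18, hoxa9b at -0.17 (spots at -0.24 and -0.10) and hoxc13a at -0.14. The raw Cy5 signal is above the Cy3 signal for each of these genes, and over all measured spots of this array the median raw log2 ratio was 0.58 (0.89 at 8 hpf), so these ratios are below 0 only after normalization. Medians were 0.13 for paralog groups 1 to 4, 0.00 for groups 5 to 8 and -0.02 for groups 9 to 13, against -0.10, -0.19 and -0.25 under spike-in centring without loess. By cluster letter they were 0.04 for hoxa, 0.09 for hoxb, -0.05 for hoxc and 0.26 for hoxd, where 4 of 5 measured genes lay above 0; spike-in centring without loess put hoxa at -0.25, hoxc at -0.30 and hoxd at -0.08.

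Of 6 duplicate pairs measured at 48 hpf, the largest difference was between hoxb5a at -0.33 and hoxb5b at 0.06 (3 spots, -0.26 to 0.09). It is more than the pooled spot SD of 0.24, with no test. That SD is the spread of single spots and not of a difference between genes. hoxa9a at -0.37 and hoxa9b at -0.17 followed. The copies of hoxa9, hoxb1, hoxb8, hoxc6 and hoxc11 each differed by less than the pooled spot SD. Spots of the same gene were more mixed at this time: 15 of 25 genes with 2 or more measured spots had all on the same side. The share of all such genes is not given here.

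Over the 28 genes measured at both times, the log2 ratio was lower at 48 than at 8 hpf in 20. The median difference was -0.41, where all 13205 genes measured at both times had a median of 0.01 and 48.9% lay below 0. Without the filter on dim spots the median difference over all 47 genes was -0.07, against -0.01 for all genes. With spike-in centring without loess the hox median difference was 0.02 and that of all genes 0.37, and with spike-in centring after loess they were -0.06 and 0.37. All 10 measured genes of groups 5 to 8 had a lower ratio at 48 hpf, by 0.08 to 0.74, with a median difference of -0.52. At 1.5-fold, 8 members were lower and 1 higher, where 9.59% and 12.1% of all genes were. No difference between the times was tested, since each time has 1 array.

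The largest differences towards 48 hpf were those of hoxc3a, from 0.89 to -0.05, hoxd3a, from 0.86 to -0.07, hoxa9a, from 0.40 to -0.37, and hoxb5a, from 0.42 to -0.33. Each median is over the spots measured at that time, and these spots can differ between the times. For hoxc3a they were 3 spots at 8 hpf and 4 at 48 hpf, the latter from -0.79 to 0.26. Its spots measured at both times went from 0.08 to -0.14, from 0.89 to 0.04 and from 0.91 to 0.26. In the other direction hoxb13a went from -0.96 to -0.06 (2 spots at 48 hpf, -0.26 and 0.13), hoxa13b from -0.23 to 0.24, hoxb1b from -0.08 to 0.32 and hoxd10a from 0.14 to 0.39. The spot of hoxd10a measured at both times went from 0.14 to 0.56. In all, 11 genes were above 0 at both times, 10 above at 8 and below at 48 hpf, 3 the reverse and 4 below at both. The matching shares of all genes are not given here, so these counts cannot be set against the array.

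Levels within the control embryos were set side by side across the arrays after scaling the arrays to each other (Aquantile); the median of all 13451 genes measured in Cy3 at both times was -0.31. Array and time cannot be told apart in these values. Of 30 hox genes measured at both times, 9 were at least 4-fold higher at 48 hpf and 1 at least 4-fold lower, where 7.11% and 6.3% of all genes were. The median hox gene was 1.32 higher on the log2 scale (2.49-fold).

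Highest were hoxd3a at 3.95, hoxc13a at 3.89, hoxa3a at 3.52 and hoxc4a at 3.40. The first 3 rest on 1 spot each, with control signals at 8 hpf of 61.5, 67.5 and 81 beside a limit of 59.9. Without the filter on dim spots hoxd3a was unchanged, but hoxc13a stood at 3.08, hoxa3a at 1.81 and hoxc4a at 3.16, below hoxa4a at 3.31. hoxb1b, the gene of group 1 that acts at gastrulation, was lowest at -3.71, from a median control signal of 10113 at 8 hpf to 703.5 at 48 hpf. hoxb7a stood at -1.33 (-0.43 without the filter on dim spots), hoxc6b at -0.71 and hoxc8a at -0.61. Medians were 2.21 for groups 1 to 4, 1.41 for groups 5 to 8 and 1.14 for groups 9 to 13; 17 further members were not measured in Cy3 at 8 hpf. Across the 30 genes, Spearman's rho with paralog number was -0.05, a description only.

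**Figure D4:**
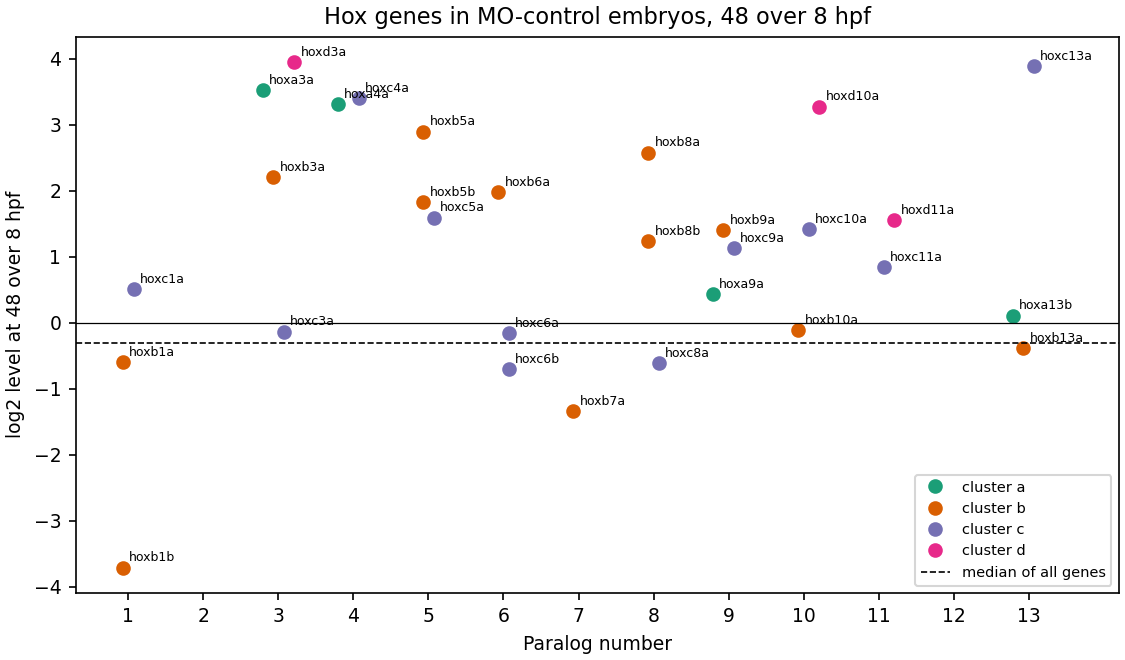
Log2 level of hox genes in MO-control embryos at 48 over 8 hpf against paralog number, coloured by cluster letter, for the 30 genes measured in Cy3 at both times. The dashed line is the median of all genes (-0.31). hoxd3a at 3.95 and hoxc13a at 3.89 are highest and hoxb1b at -3.71 is lowest. The values of hoxd3a and hoxc13a rest on 1 spot each, with control signals at 8 hpf of 61.5 and 67.5 beside a limit of 59.9.

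Genes that act on or with hox genes were taken as lists and are described by counts, on the reported scale; spike-in centring without loess moves the median of all genes to -0.56 at 8 hpf and -0.19 at 48 hpf. Of the TALE class cofactors, 10 of 13 on the array were measured at 8 hpf and 12 at 48 hpf, with medians of 0.10 and -0.21. At 8 hpf pbx4, a hindbrain Pbx partner of hox proteins, was highest at 0.58 and meis3 next at 0.55, against pbx2 at -0.11 and pknox1.1 at -0.07. At 48 hpf pbx3b at -0.96 and pbx1a at -0.67 were lowest and were the 2 of 12 members at 1.5-fold lower, where 6.87% of all genes were, against pbx2 at 0.39 and pbx4 at 0.28. None was 2-fold at either time.

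In the retinoic acid list, 17 of 23 genes were measured at 8 hpf with a median of 0.14 and 11 above 0, where 47.9% of all genes were. cyp26c1, which degrades retinoic acid, stood at 0.94 and the receptor gene raraa at 0.70, the 2 of 17 members at 1.5-fold higher, where 7.43% of all genes were. crabp2a, a retinoic acid binding protein, at -0.63 was the 1 member at 1.5-fold lower, where 8.07% of all genes were, and stra6 followed at -0.21. aldh1a2, which makes retinoic acid, had signals of 18347 and 5615 and a ratio of 0.57. At 48 hpf 18 were measured with a median of 0.04; crabp1b at 0.62 and cyp26c1 at 0.61 were highest, crabp1a at -0.82 and rxrba at -0.45 lowest. Caudal factors at 8 hpf were at 0.42 for cdx1a (spots at 0.07 and 0.78) and 0.34 for cdx4. In the same list gdf11 was at -0.46 on 1 dim spot, with signals of 38 and 74. At 48 hpf gdf11 at 0.09, cdx1a at -0.05 and egr2b at -0.12 were the measured members.

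Polycomb and trithorax genes had medians of 0.05 at 8 hpf (11 of 14 measured) and 0.08 at 48 hpf (12 measured). At 8 hpf kdm6bb, a demethylase of the Polycomb mark, was at 0.87 and the Polycomb factor aebp2 at 0.76, against bmi1b at -0.35 and rnf2 at -0.22. The value of kdm6bb rests on 1 spot, with a control signal of 66 beside a limit of 59.9, and the authors' deposited table gave 1.84. At 48 hpf kdm6bb and aebp2 were again highest, at 0.40 and 0.33, and rbbp5 at -0.30 and cbx8a at -0.29 lowest. Genes that lie beside hox clusters had a median of -0.15 at 8 hpf, with 1 of 5 above 0. There mtx2 at 0.18 and hibadhb at -0.09 were highest, and skap2 at -0.42 and hibadha at -0.19 lowest. At 48 hpf their median was 0.24, with 5 of 7 above 0. Here hibadha at 0.59 and lnpa at 0.37 were highest, and evx1 at -0.30 and skap2 at -0.04 lowest. Of all genes, 47.9% lay above 0 at each time.

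Regional genes of the brain and spinal cord and genes of the tail bud were set beside the hox values, since the hindbrain, spinal cord and tail bud use hox genes. Some members mark other regions: otx2a, otx2b, pax2a and en2a lie ahead of the hindbrain or at its front border. The regional list had medians of 0.10 at 8 hpf (12 of 14 measured) and -0.10 at 48 hpf (14 measured). ephb4a at 0.85 and fgf8a at 0.67 were highest and rfng at -0.59 and en2a at -0.18 lowest at 8 hpf. en2a rests on 1 dim spot, with signals of 53 and 66.5 beside a Cy3 limit of 59.9. The authors' deposited table gave 1.19 for it, the opposite direction. fgf8a at 0.55 and otx2a at 0.48 were highest and otx2b at -0.95 and gbx2 at -0.80 lowest at 48 hpf. The tail bud list also holds vox, vent and ved, which are known as ventral repressors. Its medians were 0.07 (13 of 15 measured) and 0.33 (7 measured, the value of ved). wnt8a at 0.97 (spots at 0.95 and 0.99) and fgf8a led it at 8 hpf, with mespba at -0.28 and tbx16 at -0.21 lowest. At 48 hpf vox at 1.70, on 1 spot, and fgf8a led it, with tbx6 at -0.38 and vent at -0.37 lowest. vox was the 1 of 7 members 2-fold higher, where 1.27% of all genes were. vent rests on 1 dim spot, with signals of 33 and 75 beside limits of 27.7 and 70.1. The part of both lists in the hox values was not tested.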

How the data were processed

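Scanner intensity values were deposited per spot as the median signal and median background of each channel, per the file headers; Agilent Feature Extraction made them, per the submitters' processing notes, and the sources used here name no version. The deposited series matrix holds log10 ratios of Cy5 over Cy3: against the raw log2 ratios of 12513 and 13502 bright spots its values had slopes of 0.298 and 0.295. Both columns have a median of 0, and how the authors centred and dye-normalized them stays unknown; values at exactly 0 were left out and the rest multiplied to the log2 scale. Here, limma 3.58.1 (R 4.3.3) corrected the background (normexp, offset 50) and applied loess within arrays; control spots had no weight in it. Measured spots exceeded the mean plus 2.6 SD of the negative controls in both channels. In Cy5 the limit was 24.4 at 8 hpf and 27.7 at 48 hpf, and in Cy3 59.9 and 70.1. Printed signals are background-subtracted medians over the measured spots, or over all spots of a gene that had none. Other names were matched through the RefSeq and Ensembl tables. Python 3.11.15 with pandas 2.3.3 and scipy 1.17.1 made the summaries, and the normalization was tested on simulated data. With 1 array per time, the number of arrays limits the precision and calls are rules of size.

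Members, lists and the detection rule were chosen with earlier results of these data known. Every hox member may be named, and of each list the 2 highest and 2 lowest genes; aldh1a2 was also named after its values were seen. The alternatives were other background corrections, normalizations, filters on dim spots and ways to join spots.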

Additional observations from a re-analysis of the deposited data

Results flagged for a closer look

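Of the 28 hox genes measured at both times, hoxa9a and hoxb5a had log2 ratios in opposite directions at the 2 times, each larger than the pooled spot SD. The share of all genes that meet this rule is not given here, so the count cannot be set against the array. hoxa9a stood at 0.40 at 8 hpf and -0.37 at 48 hpf, a difference of -0.77, and hoxb5a at 0.42 and -0.33, a difference of -0.74. All measured spots of both genes lay on the side of their median at each time. With 1 array per time the difference was not tested, and the side of 0 depends on the centring: spike-in centring without loess, which moved the median of all genes to -0.56 at 8 hpf, put these genes at -0.11 and -0.20, and median centring without loess left them at 0.42 and 0.33.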

How the results depend on the processing

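The 10 spike-in probes had medians from -2.43 to 2.90 at 8 hpf and from -2.56 to 2.51 at 48 hpf after loess. The ratios at which they were added were not used here, so this spread cannot be read as noise. Centring on the spike-in spots without loess moves all genes of an array by one amount from median centring, so the signs below follow that shift. At 8 hpf it put the hox median at -0.17, groups 1 to 4, 5 to 8 and 9 to 13 at -0.35, 0.00418 and -0.56, and clusters a to d at -0.71, -0.10, -0.19 and -0.24, with 4 genes 2-fold lower; at 48 hpf clusters a, c and d stood at -0.25, -0.30 and -0.080, and the median difference between the times became 0.022. Of the genes that go from above to below 0 (the count above 0 went from 21 to 9 at 8 hpf and from 22 to 11 at 48 hpf), those further from 0 than the spot SD in the reported values were hoxa4a (-0.52), hoxa9a (-0.11), hoxb1a (-0.32), hoxb5a (-0.20), hoxb6a (-0.46), hoxb7a (-0.054), hoxb10a (-0.14), hoxc5a (-0.26), hoxc6a (-0.13) and hoxc9a (-0.090) at 8 hpf and hoxa13b (-0.19) and hoxd4a (-0.098) at 48 hpf. Here the median of all genes itself moved to -0.56 and -0.19, so hox genes stayed 0.39 above it at 8 hpf; after loess, spike-in centring (added after seeing the data) gave a hox median of 0.10 and 1 gene 2-fold lower at 8 hpf. Across the other alternatives the hox median at 8 hpf ran from 0.21 (no filter on dim spots) to 0.67 (authors' values). The authors' values gave 0.70 for groups 1 to 4, 0.70 for groups 9 to 13, 0.58 for cluster a and 1.08 for cluster d at 8 hpf. They had 3 genes 2-fold higher, where 4.61% of all genes were, and 1 lower. They moved single dim genes furthest (hoxb13a to -3.03, hoxc1a to 1.17), and the cause was not tested. Median centring without loess gave -0.18 for cluster a, 1 gene 2-fold lower and hoxa13b at -0.020 at 48 hpf. Plain background subtraction gave 1 gene 2-fold higher at 8 hpf, where 3.20% of all genes were, and 1 lower. No background correction gave 1 lower. The share of all genes 2-fold lower is not given here for the alternatives, so these lower counts cannot be set against the array. Without a filter on dim spots cluster d stood at 0.16 and hoxb7a at -0.11 at 8 hpf. The median difference between the times was -0.07 over 47 genes without that filter. The 1.5-fold rule in place of 2-fold gave 8 genes higher and 1 lower at 8 hpf, where 7.43% and 8.07% of all genes were. Genes with 2 or more measured spots, an alternative added after seeing the data, gave -0.078 for groups 1 to 4. No paired analysis was possible because each time has 1 array. Dim signals limit the ratios of the posterior genes at 8 hpf most, of which 9 of 21 were measured.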
